A study of Mus musculus with 4 samples.

Results

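Among alveolar type II (AT2) cells of control mice after pneumonectomy, the surgical removal of a lung, 387 cells with the highest summed share of Kcnk2, Col4a4, Col4a3 and Npnt transcripts were described, out of 10077 cells in the whole series. Kcnk2 encodes a stretch-sensitive potassium channel, Col4a3 and Col4a4 encode chains of basement membrane collagen, and Npnt encodes nephronectin, a basement membrane ligand of integrins. These 4 genes chose the cells and are left out of the genes compared below; they appear only where the cells themselves are counted or divided. The library of control mice at 21 days after pneumonectomy held 2252 cells. Of these, 2201 passed limits of 500 genes or more and 20% mitochondrial UMIs or less (unique molecular identifiers, each standing for 1 captured transcript). Sftpc, the surfactant protein C gene, made up at least 2% of the UMIs in 1965 of them, and 1931 of those had no UMI of Ptprc, Pecam1 or Col1a2. Members were the top 20% of these 1931 cells by score, the UMIs of the 4 genes over all UMIs of the cell. The comparison cells were to be the bottom 50%, but 56.2% of the cells had no UMI of the 4 genes, so all 1086 cells with a score of 0 were taken, and 458 cells lay between.

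The study compared GFP+ AT2 cells of mice at postnatal day 80 in 4 groups of 1 library each. All mice carried the Sftpc-CreER driver, which is active in cells that express Sftpc, and the Rosa26-mTmG reporter, which turns cells GFP+ once Cre has acted, and all received 4 doses of tamoxifen. Control mice had the Cdc42flox/+ genotype, so their AT2 cells too had a floxed allele of Cdc42, the gene of a small GTPase of the actin cytoskeleton and cell polarity. Mice labelled Cdc42 AT2 null had the Cdc42flox/- genotype, and each genotype was sampled after sham treatment and at 21 days after pneumonectomy. The number of mice behind a library was not stated in the labels. The 2 null libraries are named below by their labels. Cdc42 in the comparison cells was at 178 CPM (UMIs of a gene over all UMIs, scaled to 1e6) in control sham, 226 in control pneumonectomy, 261 in the library labelled null sham and 378 in the library labelled null pneumonectomy. It was thus not lower in the null libraries, and the labels do not say where the deleted sequence lies relative to the counted 3′ end, so this does not check the labels.

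AT2 cells make and store surfactant in lamellar bodies and are also the progenitors of the flat alveolar type I (AT1) cells, which cover most of the gas exchange surface. AT2 cells on the way to AT1 cells pass through transitional states with keratin, Clu and stress-response transcripts, and they are known to lose surfactant transcripts while AT1 genes such as Hopx and Ager come up. AT1 cells share a basement membrane with the capillaries beneath them, to which the collagen chains used in the score belong.

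The members were chosen on few molecules. The lowest score of a member was 284.819, on the same scale as CPM, and the highest score outside was 284.738, the median of the members was 483 and their maximum 3298. A cell with 1 UMI of the 4 genes was a member where its total was at most 3511 UMIs, and 93 members had 1 such UMI, 158 had 2, 69 had 3 and 67 had 4 or more. Npnt was seen in 278 members, Kcnk2 in 161, Col4a4 in 124 and Col4a3 in 40. 203 members had a UMI of 1 of the 4 genes, 154 of 2, 28 of 3 and 2 members of all 4. The members were shallower than the comparison cells, with a median of 4185 against 4719 UMIs and 1480 against 1547.5 genes, and their median mitochondrial share was 5.65% against 5.09%. 3 members shared a barcode sequence with a cell of another library, and pairs of libraries shared 2 to 14 barcodes. No doublet caller was run.

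The filter required Sftpc, which was at 105794 CPM in members and 127701 CPM in comparison cells. Of the AT2 markers that the filter did not use, Sftpa1 was at 21848 against 22730 CPM, Sftpb at 11700.1 against 12930.0 CPM, Slc34a2, the phosphate transporter of AT2 cells, at 4585 against 4466 CPM and Lamp3, a lamellar body protein, at 1068 against 1118 CPM. All 9 AT1 markers were at a higher level in the members, with a sum of 2729 against 2279 CPM, and most of that sum was Ager, at 1600 against 1397 CPM. Of the ciliated markers Foxj1, Ccdc153 and Tmem212 were at 0 in the members, as were the macrophage markers Adgre1, Marco, C1qa and C1qb and the mesothelial markers Msln and Upk3b. Other markers of these lists had UMIs: ciliated markers summed to 261 against 245 CPM, of which Tppp3 made up 254 and 231, macrophage markers to 16021 against 20928 CPM, nearly all of it Lyz2, which AT2 cells express, and mesothelial markers to 54.8 against 44.9 CPM, nearly all of it Krt19. Markers of dividing cells summed to 11.5 against 28.6 CPM. 6 of the 8 fibroblast markers were higher in the members, with a sum of 16.7 against 2.24 CPM, while Dcn and Pdgfra were at 0. That sum was 29 UMIs in 10 of 387 members, of which 20 lay in 1 cell. With every cell that had a fibroblast UMI left out, 154 genes were higher and 44 lower by the rule given next, and these held 134 of the 154 and 43 of the 48 genes called with all cells.

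Genes were compared as the ratio of the CPM of UMIs summed over members to that over comparison cells, with an exact 95% interval that covers counting error only. A gene was called higher at a ratio of at least 1.5, or lower at the inverse of 1.5 or less, with an interval that left out 1, and genes averaging at least 20 CPM over both kinds of cells were measured. Of 4734 genes measured in control pneumonectomy, 154 (3.25%) were called higher and 48 (1.01%) lower. Both percentages come from the contrast that chose the cells, so they only describe it. With ratios divided by their median over all genes, the counts were 88 higher and 75 lower, since the median log2 ratio of all genes was 0.08. Cells are not replicates and each group is 1 library, so no p-value was computed and no difference between groups has a replicate check. Malat1, a nuclear non-coding RNA, was at 23571 CPM in members and 15798 in comparison cells, and its part in the other ratios was not tested beyond the following: with the score ranked inside 5 bins of the Malat1 share, 117 genes were higher and 38 lower, and with the score ranked inside 5 bins of depth, which brought the median UMIs to 4753 against 4725, 105 were higher and 34 lower.

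AT1 genes as a list had higher levels in the members. Of 32 genes on a list of AT1 identity, 21 were measured and all 21 had a ratio above 1. Their median log2 ratio was 0.37, beside 0.08 over all genes. 5 of them were called higher, beside 3.25% of all genes, and 0 lower, beside 1.01%. The score genes were not among those measured. The list describes the contrast that chose the cells and is no independent check of it. Hopx, a homeodomain protein of AT1 cells on chromosome 5 (77086988 to 77115121, minus strand, mm10), was at 61.7 CPM in the members and 26.5 CPM in the comparison cells (ratio 2.33, 1.79 to 3.01). In 100 leukocytes of the same library, cells with Ptprc and Sftpc below 2% of UMIs, it was at 32.4 CPM. Clic5, a chloride intracellular channel protein that is a marker of AT1 cells, was at 68.1 against 31.4 CPM (2.17, 1.70 to 2.76) and at 2.02 CPM in leukocytes. Timp3, an inhibitor of metalloproteinases held in the matrix, was at 75 against 34.0 CPM (2.21, 1.75 to 2.78). Cryab, a small heat-shock chaperone, was at 195 against 120 CPM, and Lmo7, a protein of the actin cortex at cell junctions, at 206 against 133 CPM. With every cell thinned to 2000 UMIs before scoring, the ratios were 2.28 for Hopx, 1.39 for Clic5, 1.76 for Timp3, 1.19 for Cryab and 1.45 for Lmo7. Among the AT1 genes that were not called, Ager had a ratio of 1.14, Aqp5, the water channel of AT1 cells, 1.16, and Emp2 1.30. Ager had a UMI in 95.1% of members and 96.1% of comparison cells, and its level in leukocytes was 60.7 CPM. Hopx had one in 18.9% of members and 10.4% of comparison cells, and Clic5 in 25.1% and 13.8%, so most members had no UMI of either. Among the 100 leukocytes, which should lack AT1 genes other than Hopx, the shares were 23% for Ager, 1% for Clic5 and 11% for Hopx, at a median of 3193 UMIs a cell.

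The AT1 difference was spread over many cells. Every cell was thinned to 2000 UMIs, which left 369 members and 1036 comparison cells, and 31 of the AT1-list genes were summed. A member held a median of 6 UMIs of these AT1 genes and a comparison cell a median of 5. The means were 6.68 and 5.24, the quartiles were 4 and 9 in members and 3 and 7 in comparison cells, and the highest cells had 25 and 24. 69.4% of members and 54.5% of comparison cells had at least 5 such UMIs, so the ranges overlapped almost entirely.

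**Figure D1:**
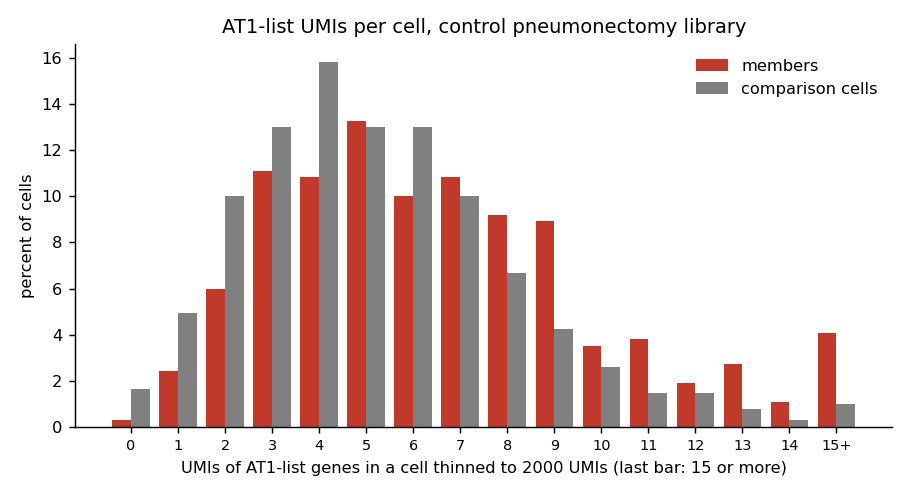
Percent of thinned cells (y axis) by the number of UMIs of AT1-list genes in the cell (x axis), for 369 members and 1036 comparison cells of control pneumonectomy. The members' bars lie to the right, with means of 6.68 and 5.24 UMIs, and both kinds of cells cover the same range.

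Basement membrane genes other than the score genes followed. Of 32 genes, 19 were measured, 17 had a ratio above 1, and 5 were called higher, beside 3.25% of all genes, and 0 lower. The median log2 ratio was 0.42, which was 0.23 with the score ranked inside depth bins and 0.17 with thinned cells. Among the 5, besides Timp3, which is on both lists, were Lama5 and Lamc1, which encode laminin chains, and Agrn. Laminins and agrin are basement membrane proteins that bind cell receptors. Lama5 was at 28.3 against 15.7 CPM (ratio 1.80, 1.24 to 2.59), Lamc1 at 27.7 against 16.3 CPM (1.70) and Agrn, which encodes the proteoglycan agrin, at 28.3 against 17.0 CPM (1.66). These levels are low: the Lama5 values stand for 49 UMIs in members and 84 in comparison cells. The receptor Dag1 had a ratio of 1.45 and Itgb1, the common beta chain of matrix-binding integrins, 1.01, and the more abundant collagen chain Col4a1 was at 152 against 139 CPM (1.10).

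Genes of the transitional state were split. Of 24, 14 were measured, 5 were called higher, beside 3.25% of all genes, and 0 lower, and the median log2 ratio was 0.29. With the chosen cells thinned to 2000 UMIs, members and comparison cells both held a median of 3 UMIs of the 24 genes. The means were 4.27 in members, 3.71 in comparison cells and 4.60 in the cells between. No such UMI was seen in 10.0% of members and 7.43% of comparison cells, while 29.5% and 23.4% had at least 5. S100a6, a calcium-binding protein, was at 482 against 226 CPM (2.13, 1.95 to 2.33). Clu, the secreted chaperone clusterin, was at 129 against 73.4 CPM (1.75), with 11.2% of the members' UMIs in 1 cell. The EGF receptor ligands Areg and Hbegf were at 85.4 against 45.4 CPM (1.88) and at 31.2 against 16.3 CPM (1.92), and Anxa1 was at 74.4 against 43.0 CPM (1.73). With cells thinned before scoring, the ratios were 1.77 for S100a6, 1.22 for Clu, 1.10 for Areg, 2.06 for Hbegf and 1.46 for Anxa1. In the leukocytes S100a6 was at 860 CPM and Anxa1 at 476 CPM, Clu at 14.2 CPM, and Areg and Hbegf at 2.02 CPM each. The keratin Krt8 was not higher, at 179 against 185 CPM (0.97), and Krt19 had a ratio of 1.21. The claudin Cldn4 was nearly absent from both kinds of cells, at 0 and 0.37 CPM. Of 8 markers of the state, 6 were at a higher level in the members and 2, Krt8 and Cldn4, at a lower one. Those higher include Sprr1a (12.7 against 0.56 CPM), Itgb6 (8.65 against 4.67 CPM) and Plaur (0.58 against 0.56 CPM), all too low to be measured. Sprr1a had a UMI in only 1.03% of members and 0.28% of comparison cells.

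Most AT2 identity genes stayed within the fold of 1.5. All 22 genes of the list, which leaves out Sftpc, were measured, and their median log2 ratio was 0.02. Of these, 0 were called higher and 1 lower, beside 3.25% and 1.01% of all genes. Sftpb had a ratio of 0.90 and Cxcl15, a chemokine of AT2 cells, 0.80, while Sftpd was at 1.13, the claudin Cldn18 at 1.26, the lipid transporter Abca3 at 1.00 and the transcription factor Nkx2-1 at 1.19. The gene called lower was Fabp5, a fatty acid carrier, at 1411 against 2184 CPM (0.65, 0.62 to 0.67).

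Secreted proteins of host defence were lower in the members as a list. Of 24 genes on that list, 12 were measured, 2 had a ratio above 1, and the median log2 ratio was -0.46. 3 were called lower, beside 1.01% of all genes, and 0 higher. Chil1, a chitinase-like protein, was at 150 against 295 CPM (0.51, 0.44 to 0.58), and Lcn2, which binds bacterial siderophores, at 374 against 583 CPM (0.64, 0.59 to 0.70). Lyz1, which encodes lysozyme, was at 8746 against 12470 CPM (0.70), and since Lyz1 and Lyz2 are near copies, reads could be split between them in counting. The third gene called, Retnla, is a cytokine-like secreted protein and was at 11 against 40.2 CPM, but 1 cell held 21.1% of its UMIs in the members and its ratio was 2.19 once cells were thinned before scoring. Outside the list, Lrg1, an acute-phase glycoprotein, was at 218 against 446 CPM (0.49, 0.44 to 0.55), Bex2, a small signalling adaptor, at 205 against 406 CPM (0.51), Dmkn, the secreted protein dermokine, at 311 against 565 CPM (0.55) and Cst8, a secreted cystatin, at 39.2 against 81.9 CPM (0.48). Hdc, the enzyme that makes histamine, was at 200.2 against 319 CPM (0.63), and Trf, the iron carrier transferrin, at 86.5 against 148 CPM (0.59). Once cells were thinned before scoring, these ratios too were nearer 1. They were 0.74 for Chil1, 0.75 for Lcn2, 0.85 for Lyz1 and 0.76 for Lrg1. Bex2 was then at 0.65, Dmkn at 0.77, Cst8 at 0.81, Hdc at 0.78 and Trf at 0.74.

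Ndnf, a secreted glycoprotein, had the highest ratio of the genes at 50 CPM or more, at 117 against 43.9 CPM (2.67, 2.20 to 3.23), and 31.3% of members against 15.2% of comparison cells had a UMI of it. After thinning those shares were 17.9% and 7.24%, and among leukocytes 3% had one before thinning, at a median of 3193 UMIs a cell. The actin crosslinker Flna was at 86.5 against 46.3 CPM (1.87), the membrane-binding annexin Anxa5 at 190 against 104 CPM (1.82), the phosphatase gene Ctdspl at 81.3 against 46.0 CPM (1.77) and Ehd2, an ATPase of caveolae, at 61.2 against 39.1 CPM (1.57). Of 30 measured genes of actin and cell shape, 2 were called higher, Flna and Tln1, and 0 lower. Of 17 measured genes of ion and fluid transport, 3 were called higher and 0 lower. Read against the 3.25% of all genes called higher, these lists and the next ones hold only 2 or 3 called genes each. The transport genes were Fxyd2, a modulator of the sodium pump, at 27.1 against 13.1 CPM (2.07), the chloride channel Cftr at 78.5 against 51.2 CPM (1.53) and the cotransporter Slc12a2 at 309 against 203 CPM (1.52). With cells thinned before scoring, their ratios were 2.55, 1.11 and 1.25. Of 26 measured alveolar transcription factors, 3 were called higher: Hopx, Tead1 (53.1 against 29.7 CPM), the DNA-binding partner of YAP, and Zbtb16 (28.3 against 17.4 CPM). Of 22 measured junction and polarity genes, 2 were called higher, Cgn (39.2 against 19.8 CPM), which encodes the tight junction protein cingulin, and the adhesion molecule gene F11r (111 against 73.8 CPM). Lists of the unfolded protein response, heat-shock proteins, nuclear-encoded oxidative phosphorylation, cholesterol synthesis and MHC class II each had 0 genes called in either direction, with median log2 ratios from -0.08 to 0.06. Beside 3.25% and 1.01% of all genes, 0 called in lists of 7 to 26 measured genes says little. Other lists also had 0 called genes. Among them were nuclear-retained RNA (median log2 ratio 0.43 over 4 measured genes) and p53 targets and cell-cycle inhibitors (0.22).

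**Figure D2:**
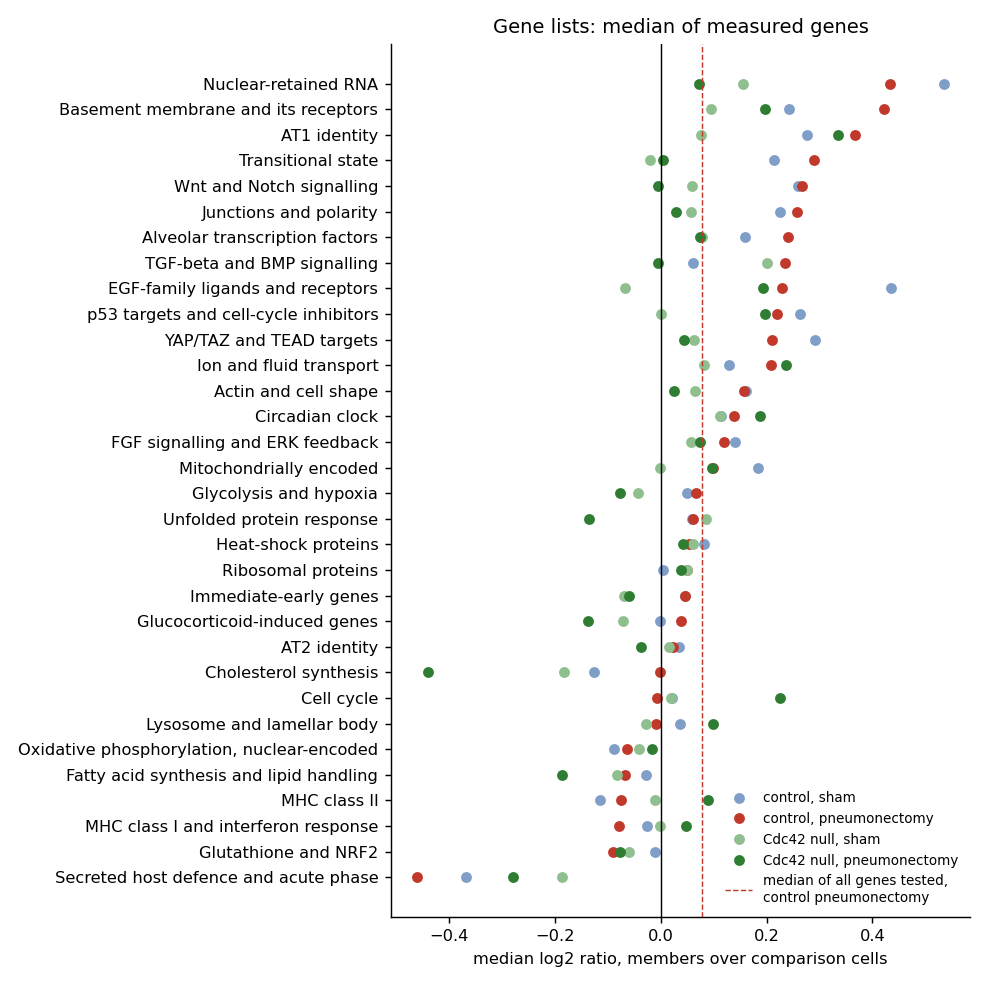
Median log2 ratio of the measured genes of each list (x axis; lists on the y axis) in the 4 libraries, each with members and comparison cells chosen inside that library. In control pneumonectomy the medians run from -0.46 for secreted host defence genes to 0.43 for nuclear-retained RNA, and the dashed line marks the 0.08 of all genes.

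Levels were also followed over 4 bins of score. From the cells with a score of 0, through the cells between, to the lower-scoring 193 and the higher-scoring 194 members, Hopx was at 26.5, 27.7, 49.0 and 75.4 CPM and Timp3 at 34.0, 34.8, 63.5 and 87.3 CPM. For both, the cells between were close to those with a score of 0, and the step came at the members. Chil1 went from 295 and 275 CPM outside the members to 202 and 94.5 CPM inside, and Lrg1 was at 446, 344, 271 and 162 CPM. S100a6 did not follow this order: it was at 432 CPM in the cells between and 391 CPM in the lower-scoring members. The median depth was 4719 UMIs in the cells with a score of 0, 5550.5 in those between, 4583 in the lower-scoring and 3938 in the higher-scoring members, so depth moved with the score among the members.

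**Figure D3:**
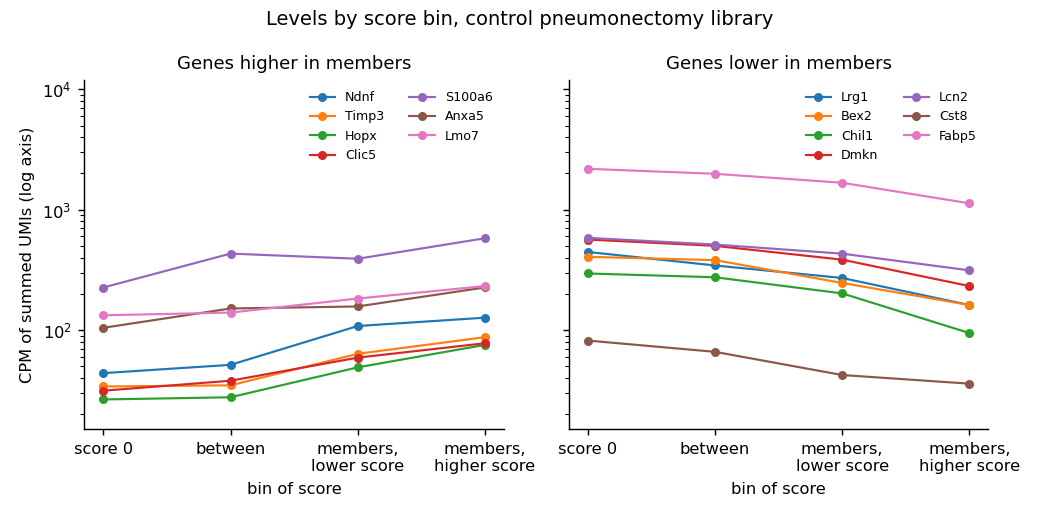
Levels in CPM of summed UMIs (y axis, log scale) in 4 bins of score (x axis) in control pneumonectomy, for 7 genes higher (left) and 7 lower (right) in the members. Hopx goes from 26.5 to 75.4 CPM and Chil1 from 295 to 94.5 CPM, while S100a6 is already at 432 CPM in the cells between.

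Members were also divided by which score gene they carried. A member without 1 of these genes had to carry another, so these splits are not independent of the rule. No interval was computed for them, and the differences were not tested. All members together held 107 UMIs of Hopx and 47 of Fxyd2. The 161 members with Kcnk2 had Lrg1 at 113 CPM and Chil1 at 83.7 CPM, and the 226 members without it had 306 and 205 CPM. Areg was at 137 CPM with Kcnk2 and 42.3 CPM without, the latter close to the 45.4 CPM of the comparison cells. S100a6 (629 against 359 CPM), Ndnf (153 against 86.8 CPM), Myh7 (281 against 124 CPM), a cardiac myosin heavy chain, and Fxyd2 (46.9 against 10.6 CPM) were also higher in the members with Kcnk2. Hopx and Tead1 went the other way, with 45.6 against 75.2 CPM and 35.5 against 67.7 CPM. The members with Kcnk2 were deeper, with a median of 4646 against 3796 UMIs. When the cells were chosen without Kcnk2 in the score, the ratio of Areg was 1.22 and that of S100a6 1.39, whereas Hopx was at 2.57, Timp3 at 2.14 and Clic5 at 1.94. Npnt divided the members less for these genes: Lrg1 was at 208 CPM with Npnt and 251 CPM without, and Ndnf at 116 and 119 CPM, though Hopx was at 52.2 and 92.6 CPM.

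The other 3 libraries, which the choice of the 387 cells did not use, were divided by the same rule with their own percentiles, and they share no cells with control pneumonectomy. In control sham, 327 members and 996 comparison cells gave 3.44% of 4390 genes called higher and 0.957% called lower. Of the 100 genes called higher in control pneumonectomy that were measured there, 22 were called higher and 1 was called lower (Dnajc14). A ratio above 1 was seen for 88 of the 100, beside 60.3% of all genes measured in control sham. Of 41 called lower in control pneumonectomy, 5 were called lower. The library labelled null pneumonectomy, with 280 members and 900 comparison cells, had 1.26% of 5087 genes called higher and 0.629% lower, and the same sets gave 12 of 105 and 11 of 41. In the library labelled null sham, with 509 members and 1660 comparison cells, 0.381% of 4727 genes were called higher and 0.19% lower, and the sets gave 2 of 109 and 2 of 39. Set against all genes measured in a library, the higher calls were repeated in 22% against 3.44% in control sham and the lower calls in 26.8% against 0.629% in null pneumonectomy. The shares of higher calls in control sham were smaller with thinned cells. With cells thinned to 2000 UMIs before scoring in every library, the higher calls of that setting were repeated in 9.17% against 2.93% in control sham, 6.92% against 2.36% in null sham and 6.72% against 2.90% in null pneumonectomy. The lower calls of that setting were then repeated in 1 of 31 in control sham, with 2 called the opposite way, and in 1 of 33 in both null libraries, with 1 opposite in each. With percentiles taken inside bins of the Malat1 share, null sham repeated 0 of 82 higher and 0 of 31 lower calls. Most calls were not repeated in any one library. Members were shallower than comparison cells in all 4: median UMIs were 3789 against 4739.5 in control sham, 4577 against 4900.5 in null sham and 9190 against 10351.5 in null pneumonectomy. Malat1 was also higher in the members of all 4. Its ratio was 1.49 in control pneumonectomy, 1.34 in control sham, 1.16 in null sham and 1.18 in null pneumonectomy. What depth or Malat1 share did to the repeats was not tested beyond the settings given.

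The genes that came back differed between libraries. Ndnf was called higher in 3 libraries: it was at 117 against 43.9 CPM in control pneumonectomy, 56.8 against 31.4 CPM in control sham and 173 against 77.1 CPM in null pneumonectomy, and in null sham its ratio was 1.40. Lrg1 was the gene called lower in all 4, with ratios of 0.49 in control pneumonectomy, 0.56 in control sham, 0.67 in null sham and 0.55 in null pneumonectomy. Chil1 and Dmkn were called lower in 3 libraries, and their null sham ratios were 0.67 and 0.73. Hopx was at 52.6 against 11.2 CPM in null pneumonectomy (4.69, 3.65 to 6.05), at 30.2 against 26.4 CPM in control sham (1.14) and at 14 against 14.8 CPM in null sham (0.94). Clic5 had ratios of 1.81 in null pneumonectomy, 1.18 in control sham and 1.33 in null sham. Timp3 showed the other pattern, with 46.4 against 18.9 CPM in control sham (2.45) and ratios of 1.11 in null sham and 1.10 in null pneumonectomy, and Lama5 had 1.70 in control sham, 1.14 and 1.06. By list, AT1 genes had 6 of 19 called higher in null pneumonectomy (Ager, Hopx, Clic5, Cryab, Lmo7 and Sec14l3), beside 1.26% of all genes there. They had 1 of 18 in control sham (Timp3), beside 3.44%, and 0 of 19 in null sham, beside 0.381%. With so few genes called in null sham, the 0 of 19 says little about this list. The median log2 ratios of the list were 0.34, 0.28 and 0.08. The secreted host defence list had median log2 ratios of -0.37 in control sham, -0.19 in null sham and -0.28 in null pneumonectomy. These differences between libraries were not tested, and null pneumonectomy was the deepest library, at a median of 11086 UMIs in its filtered cells against 4823 to 5192.

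**Figure D4:**
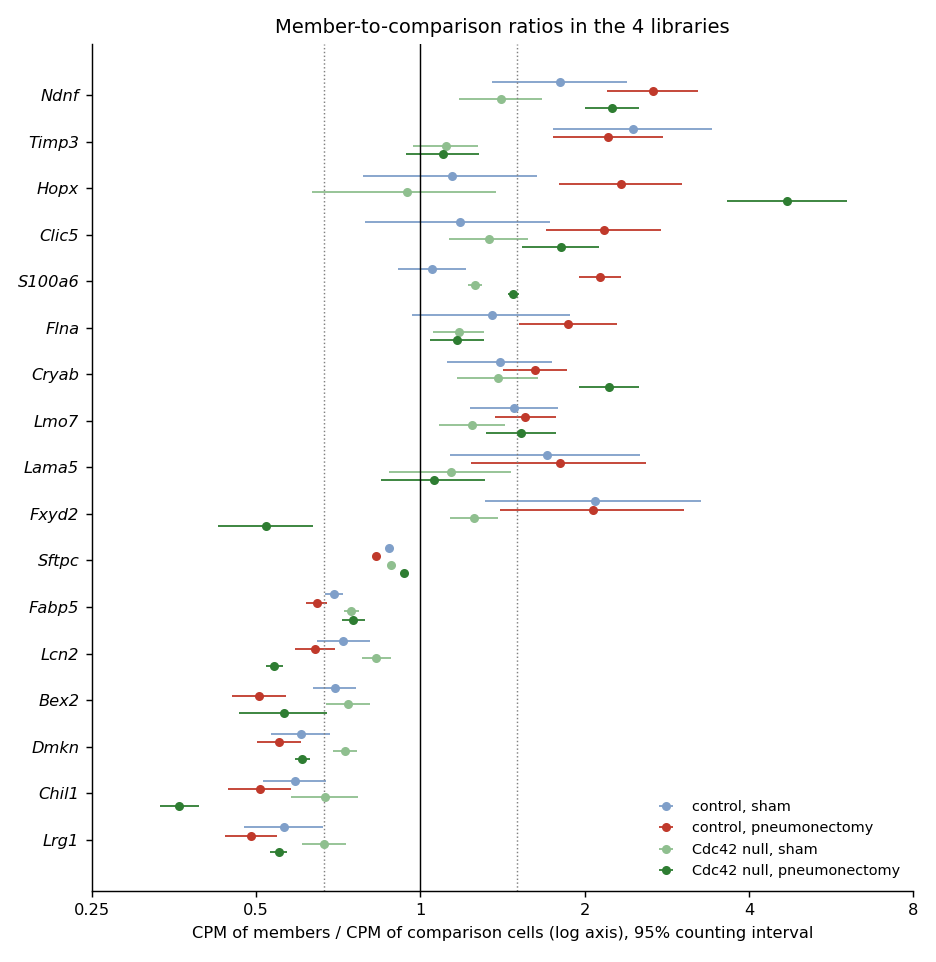
Ratio of the members' CPM to that of the comparison cells (x axis, log scale) for 17 genes (y axis) in the 4 libraries, with 95% counting intervals; dotted lines mark the fold of 1.5 and its inverse. Lrg1 lies between 0.49 and 0.67 in every library, whereas Hopx runs from 0.94 to 4.69 and Fxyd2 from 0.52 to 2.09.

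Cells that reach the score of the members were found in all 4 libraries. At or above the lowest score of a control pneumonectomy member lay 17.7% of filtered cells in control sham (exact binomial 95% interval 15.9% to 19.6%), 11.3% (10.1% to 12.6%) in null sham and 4.30% (3.30% to 5.50%) in null pneumonectomy, beside 20.04% in control pneumonectomy, where the rule fixed the share. This threshold depends on depth. With every cell thinned to 2000 UMIs, cells with at least 1 UMI of the 4 genes made up 24.3% (22.3% to 26.3%) in control pneumonectomy, 20.7% (18.7% to 22.8%) in control sham, 15.3% (13.9% to 16.8%) in null sham and 9.53% (8.04% to 11.2%) in null pneumonectomy. With at least 2 such UMIs the shares were 6.01%, 3.73%, 2.24% and 1.29%. Thinning left out 68, 82, 87 and 0 cells, respectively. The order of the 4 libraries was the same by these 3 measures, which all count the same 4 genes, with 1 library a group. It was not the same without thinning: at least 1 such UMI was seen in 43.8%, 39.1%, 34.8% and 35.5% of cells. These shares are for control pneumonectomy, control sham, null sham and null pneumonectomy. At least 2 were seen in 17.5%, 12.9%, 10.8% and 12.5%. The intervals cover the sampling of cells and UMIs within a library only and say nothing of the spread between libraries or mice, so whether the groups differ was not tested.

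**Figure D5:**
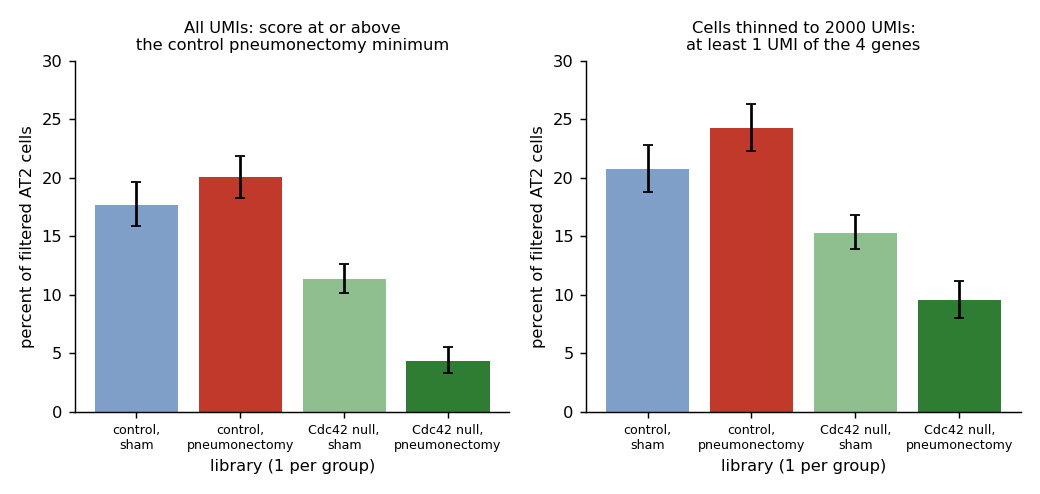
Percent of filtered AT2 cells (y axis) in the 4 libraries (x axis) at or above the lowest member score with all UMIs (left) and with at least 1 UMI of the 4 genes after thinning to 2000 UMIs (right); error bars are exact binomial 95% intervals. Control pneumonectomy is highest (20.04% and 24.3%), though the rule fixed its share on the left, and null pneumonectomy is lowest (4.30% and 9.53%).

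Promoters of the called genes were searched for 4 motifs on both strands in the 250 bases before each RefSeq start (GRCm38.p6), a search chosen after the calls were known. Windows were held for 115 of the 154 higher and 34 of the 48 lower genes. The C/EBP motif TTNNGCAA was found before 23.5% of the lower genes (8 of 34: Bex2, Cd302, Dmkn, Gstm2, Lcn2, Rbp4, Retnla and Zbtb8os), 6.09% of the higher genes, 9.25% of 3707 measured genes with a window and 9.56% of all 32851 windows. The TEAD motif CATTCC was found before 15.7% of the higher and 5.88% of the lower genes (12.8% of measured genes, 12.6% of all windows), the AP-1 motif TGANTCA before 5.22% and 11.8% (4.99% and 6.75%), and the STAT motif TTCCNGGAA before 0.87% and 0% (1.05% and 0.913%). The motifs do not overlap in the stretches printed here. They are shown, in the direction of the gene and with the motif in capitals, for Bex2 and Dmkn, lower in control and null pneumonectomy, and for Myh7, higher in both; they lie at chrX:136068339-136068438 (minus strand, C/EBP as its reverse complement), chr7:30763506-30763605 (plus strand, C/EBP) and chr14:54994768-54994867 (minus strand, TEAD as its reverse complement), outside the GENCODE bounds of these genes.
Bex2: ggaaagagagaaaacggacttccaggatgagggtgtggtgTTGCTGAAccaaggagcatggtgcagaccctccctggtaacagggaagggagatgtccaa
Dmkn: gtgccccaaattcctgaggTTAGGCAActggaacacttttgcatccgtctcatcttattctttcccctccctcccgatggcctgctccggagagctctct
Myh7: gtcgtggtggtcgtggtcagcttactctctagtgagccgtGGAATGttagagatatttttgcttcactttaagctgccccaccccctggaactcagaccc
A match describes the letters of the window and is not a measured site.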

How the data were processed

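The deposited table held raw UMI counts of 17117 genes in 10077 cells, which the authors did not normalize, judged from whole numbers with differing totals. Libraries were prepared with the 10x 3′ protocol per the labels, and the submitters' processing notes name Cell Ranger 2.1.0, Seurat 2.3.4 and the build mm10, with no role or order. The barcode ending gave each cell's library, and 0 cells were without one. The filtered cells of control sham, control pneumonectomy, null sham and null pneumonectomy numbered 1635, 1931, 2545 and 1396, with median depths of 4823, 4873, 5192 and 11086 UMIs.

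Counts were summed over cells and divided by their total (Python 3.11.15, numpy 2.4.6, scipy 1.17.1, pandas 2.3.3). Intervals are exact and conditional on both sums; they cover counting error only. Thinning drew 2000 UMIs a cell without replacement. The calculation was tested on simulated data. The members and the 30 gene lists were chosen with earlier results of these data known. Named genes were the 15 highest and 15 lowest ratios among genes at 50 CPM or more with no cell holding over 10% of the UMIs, up to 4 called genes a list, and Sftpc, Ager, Hopx and Cdc42; other list members are named beside them as values. Gene positions are from GENCODE M21 and promoter sequences from RefSeq. Alternatives to the filter, the score, the depth, the scaling and the thresholds were run, and those on Malat1 share, fibroblast UMIs and at least 2 score UMIs were chosen after seeing the data. Values of 1 called gene are not reported here.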

Additional observations from a re-analysis of the deposited data

Results flagged for a closer look

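Fxyd2, a modulator of the sodium pump, stood on opposite sides in 2 libraries. Its ratio of members to comparison cells was 0.522 in the library labelled null pneumonectomy (40.0 against 76.7 CPM) and 2.07 in control pneumonectomy (27.1 against 13.1 CPM), with 2.09 in control sham and 1.25 in the library labelled null sham. In control pneumonectomy 1 cell held 10.6% of the members' 47 UMIs. The difference between the libraries was not tested.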

How the results depend on the processing

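No paired analysis was possible because each group is 1 library and no result comes from a test across samples. The counts of 154 higher and 48 lower genes became 88 and 75 with ratios divided by their median, 24 and 11 at 50 CPM or more, 472 and 129 with no minimum, 12 and 5 at a fold of 2, 364 and 85 with the top 10% as members, and 97 and 25 without Npnt in the score. With cells thinned to 2000 UMIs before scoring, 162 and 36 genes were called, of which 41 and 7 were calls of the full data. Most calls of that setting were thus other genes. Of the calls of the full data, 145 of 154 and 41 of 48 stayed on their side of 1. The thinned UMIs are drawn from the same counts that gave these calls, so this is no independent check. Thinning also changed the members, which were then all 452 cells with at least 1 score UMI, against 1411 comparison cells. Why the calls differed was not tested. Under thinning the log2 ratio of Ifitm3 was 0.47, of Id3 -0.18 and of Retnla 1.13, and that of Egr1 was 0.13 with at least 2 score UMIs in each member, each against its direction in the full data. Over 21 settings, the log2 median of AT1 genes ran from 0.25 to 0.42, that of basement membrane genes from 0.17 to 0.54 and that of secreted host defence genes from -0.57 to -0.25.

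Calls repeated in control sham, higher and lower, were 9 and 5 in depth bins, 2 and 3 at 50 CPM and 2 and 1 at a fold of 2; in null sham 1 and 1, 0 and 1, and 0 and 0; in null pneumonectomy 9 and 8, 5 and 7, and 2 and 0. With thinned cells they were 11 and 1 in control sham (1 and 2 opposite), 9 and 1 in null sham (0 and 1) and 8 and 1 in null pneumonectomy (2 and 1), and inside bins of Malat1 share 16 and 7, 0 and 0, and 7 and 6 (1 and 0 opposite in null pneumonectomy); these 2 settings were chosen for the repeats after seeing the data. The share at or above the score minimum was 20.7% thinned and 15.6% with at least 1000 genes and at most 10% mitochondrial UMIs in control sham, 15.3% thinned and 9.99% with Sftpc at 5% in null sham, and 9.53% thinned in null pneumonectomy. The cause of these shifts was not tested. 93 of 387 members rest on 1 UMI of the score genes, which limits how well the rule parts cells at this depth.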
